A study of Mus musculus with 2 samples.

Results

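Peaks of H3K9me3 that lie far from any protein-coding gene are described here, as mapped in mouse intestinal stem cells by chromatin immunoprecipitation and sequencing (ChIP-seq). A peak was taken when it lay on chromosomes 1 to 19 and its midpoint was more than 500 kb from every protein-coding gene span of GRCm38. Of the 40119 deposited peaks, 37904 lay on these chromosomes, and 2080 of them (5.49%, exact 95% interval 5.26 to 5.72%) met the rule. They are called desert peaks below, and the other 35824 are called other peaks. An unbroken stretch of bases beyond the 500 kb limit is called a desert. Position alone chose the members, so their width, tags and spacing were not used by the rule.

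The study sequenced 1 H3K9me3 ChIP library beside 1 control, which carries the word input in its title and IgG as its antibody. For both, cells with high GFP and low CD24 were sorted from a pool of 12 mice, C57BL/6 in strain and 8 weeks old. Their genotype was Lgr5-EGFP-IRES-creERT2;setdb1fl/fl. GFP and a drug-inducible Cre are driven from Lgr5, a gene of cycling crypt stem cells, and both Setdb1 alleles are flanked by loxP sites. The labels do not say whether Cre was activated, and they give no second genotype. A list of peaks holds no expression values, so the cell type was not checked against its markers. With 1 library per group there is no replicate, and peaks of 1 library are not replicates of a condition, so no test was made and no p-value is given. Intervals are exact at 95% and cover counting error alone.

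Trimethylation of lysine 9 on histone H3 is laid down by methyltransferases such as SETDB1 and SUV39H1 and is bound by HP1 proteins, which compact the chromatin. SETDB1, brought to DNA by TRIM28 and KRAB zinc finger proteins, is known for silencing endogenous retroviruses. Gene deserts are long stretches without protein-coding genes. They often lie beside genes of neuronal adhesion and of development, are poor in CG dinucleotides and are rich in LINE elements and old retroviral copies. Repeat classes were not analysed here.

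A small share of the annotated transcription starts in the deserts lay under a desert peak. RefSeq promoter windows (GRCm38.p6, 250 bases before to 50 after a start) were available for 230 starts of other gene types inside the deserts, and 4 of them (1.74%) shared bases with a desert peak. Among the 31166 windows outside the deserts on the same chromosomes, 13.1% shared bases with a peak. Those windows were not limited to other gene types, so the shares come from unlike sets of starts. Peaks also covered 10227.8 bp per Mb of desert and 14755.4 bp per Mb elsewhere. The part of gene type and of peak cover in these shares was not tested. The 4 windows belong to long non-coding RNAs of unknown role and are shown because they are the places where the mark met an annotated start. Capitals mark each CG, the dinucleotide that can carry DNA methylation. The CG motif reads alike on both strands, and 94.6% of the 32851 windows of the table hold at least 1.
Gm46854: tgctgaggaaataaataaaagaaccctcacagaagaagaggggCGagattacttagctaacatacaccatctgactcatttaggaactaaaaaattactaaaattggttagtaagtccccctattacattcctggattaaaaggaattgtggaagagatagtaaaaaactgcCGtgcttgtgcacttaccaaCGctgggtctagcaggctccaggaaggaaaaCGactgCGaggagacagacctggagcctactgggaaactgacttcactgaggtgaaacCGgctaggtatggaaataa
Gm12381: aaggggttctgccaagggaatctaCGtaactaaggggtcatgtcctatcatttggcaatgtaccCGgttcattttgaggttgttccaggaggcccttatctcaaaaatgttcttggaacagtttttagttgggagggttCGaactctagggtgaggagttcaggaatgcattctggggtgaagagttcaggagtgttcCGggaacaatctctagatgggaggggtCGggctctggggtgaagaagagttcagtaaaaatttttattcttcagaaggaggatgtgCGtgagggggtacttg
Gm39613: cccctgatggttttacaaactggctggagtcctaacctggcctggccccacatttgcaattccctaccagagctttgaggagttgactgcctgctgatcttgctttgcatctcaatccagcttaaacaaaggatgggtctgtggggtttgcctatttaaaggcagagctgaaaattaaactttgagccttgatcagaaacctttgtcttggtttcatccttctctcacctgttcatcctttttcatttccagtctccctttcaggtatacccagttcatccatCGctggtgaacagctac
Gm46645: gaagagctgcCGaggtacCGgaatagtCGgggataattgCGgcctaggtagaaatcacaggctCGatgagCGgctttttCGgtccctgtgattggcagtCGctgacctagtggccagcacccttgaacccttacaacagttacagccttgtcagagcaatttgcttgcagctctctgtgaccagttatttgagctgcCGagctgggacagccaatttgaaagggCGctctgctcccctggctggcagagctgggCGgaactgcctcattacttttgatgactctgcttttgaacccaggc
The Gm46854 window (chr4:51876397-51876696, plus strand) has 6 CG and lay wholly, over 300 bp, inside a peak of 231.5 normalized tags. Gm12381 (chr4:38855434-38855733, minus strand) also has 6 CG, and 59 bp of its window lay under a peak of 156.6 normalized tags. Gm39613 (chr11:24951310-24951609, plus strand), with 1 CG, shared 275 bp with a peak of 15.7 normalized tags. Gm46645 (chr19:15340298-15340597, minus strand), with 11 CG, shared 85 bp with a peak of 11 normalized tags. The first pair of windows thus lay at peaks with high tag counts for the deserts and the second pair at peaks below the desert median. The median window inside the deserts had 2 CG, against 7 over all 32851 windows, which are not limited to those gene types. The deserts also held 19 microRNA hairpins of RefSeq, and no desert peak touched one. The nearest, Mir8099-2 on chromosome 12, was 494 bp from a peak of 9.43 normalized tags.

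The deserts held fewer peaks per base than the rest of the autosomes. Desert peaks had a density of 10.3 per Mb (9.89 to 10.8) over 201.4 Mb, against 16.3 per Mb (16.1 to 16.4) for other peaks over 2200.8 Mb. The ratio was 0.634 (0.607 to 0.663). Deserts made up 8.39% of the area and held 5.49% of the peaks and 6.05% of all tags in peaks. Peaks covered 10227.8 bp per Mb of desert, against 14755.4 bp per Mb elsewhere. Areas were counted between the first and the last deposited peak of each chromosome, and gaps of the assembly within them were not removed. The share of bases to which reads can be mapped uniquely was not measured, so densities are per base of the assembly.

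The density of tall peaks in the deserts did not differ from that elsewhere beyond counting error. A normalized tag count is the ChIP tags of a peak scaled by the authors to a fixed library total, and 1 tag was worth 1.05 of these units. Medians, ranges and classes of ChIP tags are in these units unless said to be before scaling. Tall refers here to this count over the whole peak, not to tags per kb. The top 10% of peaks by the normalized tag count, those with at least 49.8 normalized tags, are called top peaks. They made up 344 of the 2080 desert peaks (16.5%, 15.0 to 18.2%), against 9.78% (9.47 to 10.1%) of other peaks and 10.1% of all peaks tested on these chromosomes. Among other peaks at 200 to 500 kb from a gene the share was 16.7%. Per Mb, the deserts held 1.71 top peaks (1.53 to 1.90), against 1.59 (1.54 to 1.65) elsewhere, a ratio of 1.073 whose interval of 0.958 to 1.199 includes 1. For the remaining peaks the ratio was 0.587 (0.559 to 0.616).

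The shortfall of peaks grew smaller with each step in tag count. The peaks were split into 5 classes of about 20% each. In the lowest class, with 9.43 to 10.5 normalized tags, 248 of 7027 peaks were desert peaks, and their density was 0.3997 times (0.351 to 0.454) that elsewhere. The ratio was 0.457 (0.406 to 0.513) for 11 to 14.1 tags, 0.573 (0.517 to 0.633) for 14.7 to 19.9 tags and 0.744 (0.677 to 0.816) for 20.4 to 31.4 tags. In the highest class, of 32 tags and more, 647 of 7750 peaks were desert peaks and the ratio was 0.995 (0.917 to 1.08). The intervals of the 3 highest classes do not overlap one another, while those of the lowest pair do.

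**Figure D1:**
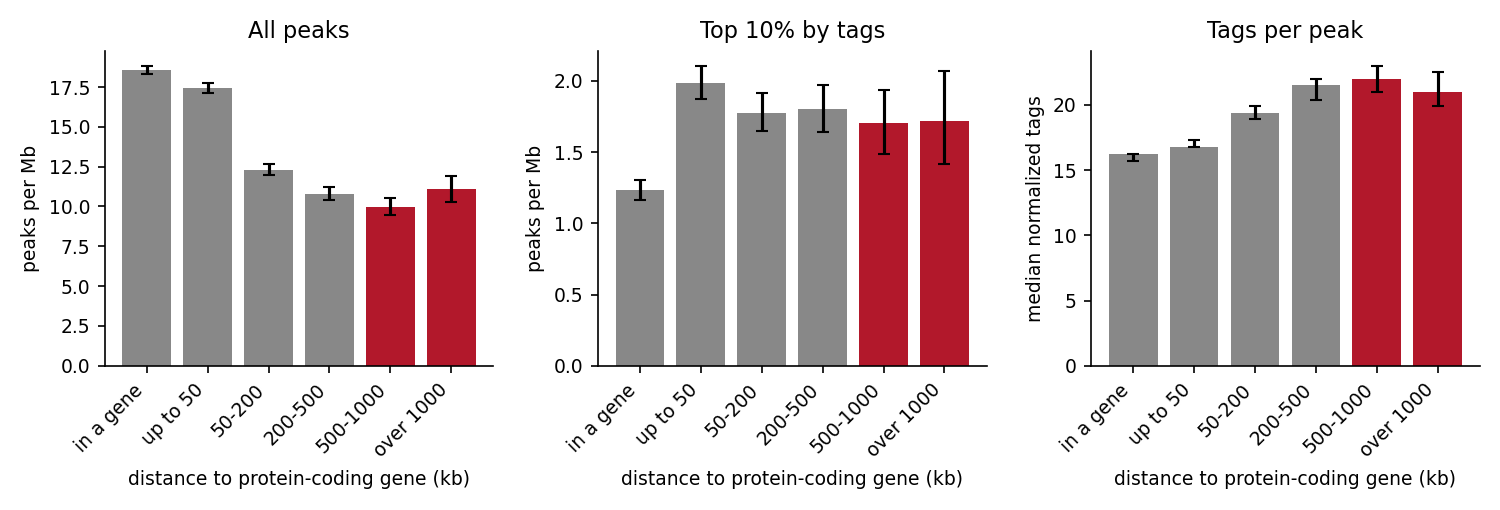
Peaks by distance of their midpoint to the nearest protein-coding gene on chromosomes 1 to 19, with desert classes in red, as all peaks per Mb (left), top peaks per Mb (middle) and the median of normalized tags (right). Bars give the value and whiskers the exact 95% interval of counting error (of the median, on the right). Peak density is 18.6 per Mb inside genes and 9.96 and 11.1 per Mb in the desert classes, while top peaks range from 1.23 to 1.99 per Mb.

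The 500 kb limit did not mark a step. Peak density was 18.6 per Mb inside protein-coding genes, 17.4 up to 50 kb away, 12.3 from 50 to 200 kb and 10.8 (10.4 to 11.2) from 200 to 500 kb. It was 9.96 per Mb (9.43 to 10.5) from 500 to 1000 kb and 11.1 (10.3 to 11.9) beyond 1000 kb. The median of normalized tags was 21.5 (20.4 to 22.0) for peaks at 200 to 500 kb, 22.0 (21.0 to 23.0) at 500 to 1000 kb and 21.0 (19.9 to 22.5) beyond, so the intervals of the desert classes overlap that of the class before them. Inside genes the median was 16.2. Top peaks were at 1.23 per Mb (1.16 to 1.30) inside genes and at 1.70 to 1.99 per Mb in every class outside them, deserts included. The members nearest the limit lay 500.8, 501.4 and 501.5 kb from a gene and had 19.4, 51.3 and 17.3 normalized tags. The nearest peaks outside it lay at 499.7, 499.6 and 499.4 kb and had 28.3, 17.8 and 11 tags.

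Within the deserts, peaks near the edges and near the centre had like values. The median desert peak lay 819.7 kb from the nearest protein-coding gene, 728 lay beyond 1000 kb and 18 beyond 2000 kb. In deserts bounded by genes on either side, the inner 50% of the length held 1068 of 2077 peaks (51.4%, 49.2 to 53.6%). Median tags were 21.5 (20.4 to 22.5) in the inner 50% and 22.5 (21.0 to 23.6) in the outer 50%. The peak farthest from a gene lay 2249.9 kb away on chromosome 18 (chr18:28015304-28016074), between the RNA-binding protein gene Celf4 and the lipid kinase gene Pik3c3. It held 20 tags, or 21.0 normalized tags, with the control at 0.5 tag. The next farthest, on chromosome 14 between the protocadherin genes Pcdh20 and Pcdh9, had 43.0 normalized tags at 2218.1 kb.

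**Figure D2:**
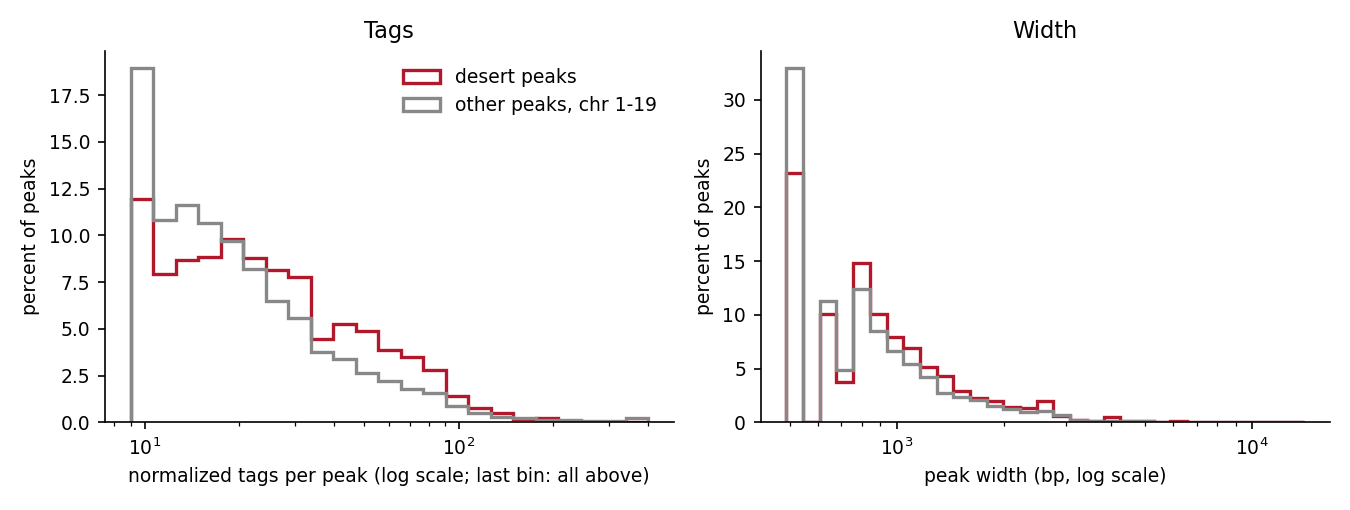
Distribution of normalized tags per peak (left) and of peak width in bp (right), both on log axes, as the percent of 2080 desert peaks (red) and of 35824 other peaks (grey). Desert peaks are fewer in the lowest bins and more frequent between about 20 and 100 tags, with medians of 21.5 and 16.8 tags.

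Desert peaks held more tags and were somewhat wider. The median was 21.5 normalized tags (21.0 to 22.5) in desert peaks, with quartiles of 14.1 and 37.2 and a highest value of 298.6. Other peaks had a median of 16.8 (16.8 to 17.3), with quartiles of 11.5 and 27.2 and a highest value of 16841.7. Desert medians were above those of other peaks on all 19 chromosomes. In tags before scaling, the medians were 20.5 in desert peaks and 16.0 in other peaks. Median width was 825.5 bp (810 to 843) in desert peaks and 761 bp (758 to 764) in other peaks, and the desert median was higher on 18 of 19 chromosomes, chromosome 13 being the exception. Peaks of exactly 500 bp made up 483 desert peaks (23.2%, 21.4 to 25.1%), against 32.9% of other peaks and 32.4% of all. Other peaks at 200 to 500 kb from a gene were near the deserts here. Their median width was 834.5 bp and 23.6% of them were exactly 500 bp. Peaks of at least 3000 bp were 26 in the deserts (1.25%, 0.818 to 1.83%), near the 1.14% of all peaks. Those 26 had 57.1 to 282.3 normalized tags and lay in 20 deserts. Tags per kb of peak had medians of 26.04 in desert peaks and 22.9 in other peaks.

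The median fold over control differed little, while high folds were somewhat higher in desert peaks. The deposited fold, ChIP tags scaled to the control library over control tags, had a median of 12.75 (12.32 to 13.0) in desert peaks and 12.32 in other peaks. A fold of at least 8 was reached by 1704 desert peaks (81.9%, 80.2 to 83.6%), near the 79.4% of all peaks. The 90th percentile of the fold was 26.68 in desert peaks and 22.58 in other peaks. Summed over peaks, scaled ChIP tags were 11.7 times the control tags in deserts and 10.2 times elsewhere. A fold of 12.32 is that of a 9-tag peak with the control at 0.5 tag. The control stood at its lowest value, 0.5 tag, in 746 desert peaks (35.9%, 33.8 to 38.0%), against 43.6% of other peaks and 43.2% of all, and a fold there depends on that floor. Control tags per kb of peak had medians of 1.28 in desert peaks and 1.09 in other peaks, while the summed control was 1.74 tags per kb in desert peaks and 1.96 in other peaks. The part of the control level in the tag difference was not tested. More than 10 control tags were seen in 12 desert peaks (0.577%, 0.298 to 1.01%), against 0.801% of other peaks and 0.789% of all. Without peaks of more than 10 control tags the desert median stayed at 21.5 tags.

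The desert peaks with most tags, the tallest, were mostly broad, and a count over a whole peak can rise with its width. The 10 with most tags ranged from 173.4 to 298.6 normalized tags and lay in 9 deserts. The tallest (chr12:93576877-93577676), between Gm40892 and Flrt2, which encodes a leucine-rich repeat adhesion protein, stood apart. It was 799 bp wide with 298.6 normalized tags, and its control count of 48.5 tags was the highest of any desert peak, so its fold was 4.02. Its score of 173.5, the caller's own value, was also the highest in the deserts, where the next was 34. The other 9 were at least 2609 bp wide, with folds of 10.2 to 49.1.

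The second tallest (chr8:52303490-52308989) lay 1205.4 kb from a gene, between Tenm3, a neuronal teneurin, and Aga, a lysosomal enzyme gene. It was 5499 bp wide and held 269.5 tags (238 to 304) beside 10.5 control tags. The widest desert peak (chr4:51871468-51877939, 6471 bp, 221 tags, fold 11.63) is the one that covers the Gm46854 window printed above. A peak between Epha6, an ephrin receptor gene, and Nsun3 on chromosome 16 held 186.5 tags (161 to 215) with 7.5 control tags. Among peaks whose control was above the floor, the highest folds were 57.8 on chromosome 8 (chr8:59677326-59679120, 84.5 tags), 54.4 on chromosome 3 (chr3:16994079-16995735, 79.5 tags) and 49.1 on chromosome 3 (chr3:22729784-22732499, 179.5 tags). The first pair rested on 1 control tag and the third on 2.5. A further pair, with folds of 46.2 on chromosome 17 and 42.1 on chromosome 18, also rested on 1 control tag.

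Desert top peaks were much like top peaks elsewhere in height. Their median was 69.7 normalized tags (66.5 to 72.3), against 71.8 (70.2 to 72.8) for top peaks outside. Median width was 1762.5 bp (1656 to 1890) in the deserts and 1933 bp (1892 to 1963) outside. All peaks with over 10 control tags, 12 in the deserts and 287 outside, were top peaks. They made up 3.49% of the 344 desert top peaks and 8.19% of the 3503 outside. These are the same peaks as the 0.577% (0.298 to 1.01%) of desert peaks, 0.801% of other peaks and 0.789% of all given above. The contrast among top peaks is therefore not a separate result.

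**Figure D3:**
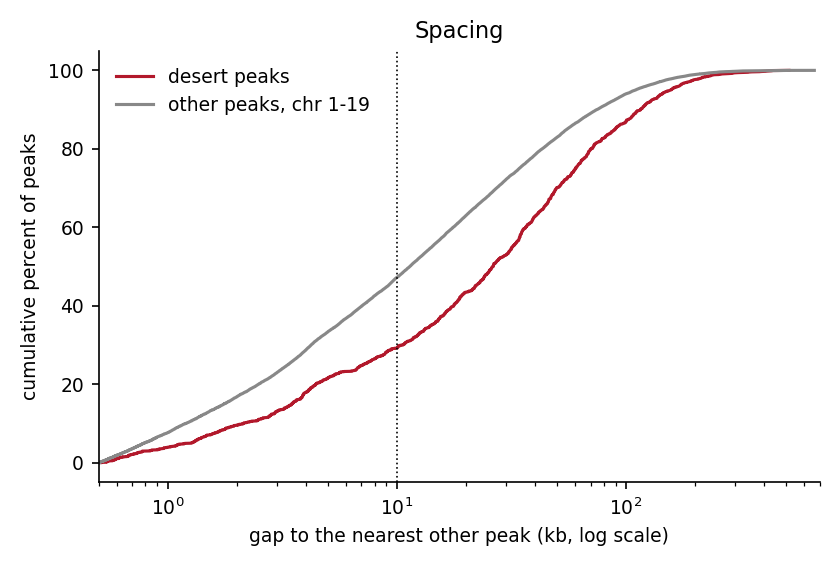
Cumulative percent of peaks by the gap in kb (log axis) to the nearest other peak, for desert peaks (red) and other peaks (grey), with a dotted line at 10 kb. At 10 kb the curves stand at 29.2% of desert peaks and 47.2% of other peaks.

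Desert peaks lay farther apart and more evenly. The gap to the nearest peak had a median of 26.3 kb (quartiles 7.15 and 60.3 kb) for desert peaks and 11.4 kb (3.35 and 34.2 kb) for other peaks. A neighbour within 10 kb was found for 607 desert peaks (29.2%, 27.2 to 31.2%), against 47.2% of other peaks and 46.2% of all. Within 50 kb the shares were 70.1% and 83.0%, beside 82.3% of all, and within 100 kb they were 86.9% and 94.0%, beside 93.6% of all. Among other peaks at 200 to 500 kb from a gene, 29.6% had a neighbour within 10 kb, near the desert share. Over 1891 windows of 100 kb inside the deserts, the mean was 1.02 peaks and the variance was 1.199 times the mean, while 21882 windows elsewhere had a mean of 1.63 and a variance 2.67 times the mean. A variance equal to the mean is what independent placement at 1 density gives. The intervals of densities and density ratios assume such placement, so they are too narrow, above all for peaks outside the deserts. The fullest desert window held 6 peaks and the fullest window elsewhere 32. Empty windows were 39.8% of those in deserts (37.6 to 42.1%) and 32.8% elsewhere. Lower density alone leads to wider gaps, and its part in them was not tested.

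No run of desert peaks was longer than 5. With a run defined as peaks separated by gaps of at most 10 kb, 1476 desert peaks stood alone, 229 runs had 2 members and 46 had 3 or more. These 46 held 146 peaks, or 7.02% of desert peaks, against 25.7% of other peaks in runs of that size. Desert peaks are 5.49% of all peaks, so the share over all lies near that of other peaks. Runs were not counted at 200 to 500 kb from a gene, where the share with a neighbour within 10 kb, 29.6%, was near that of the deserts. Lower density alone leads to shorter runs, and its part was not tested. The largest desert run had 5 peaks, and the largest run of other peaks had 48. That desert run (chr2:123513608-123525439) spanned 11.8 kb beside Sqor, a mitochondrial sulfide enzyme gene, and Sema6d, a semaphorin gene. Its peaks held 19.9, 32, 36.1, 39.3 and 26.7 normalized tags in order of position, none of them a top peak. There were 6 runs of 4 peaks. The longest 4 of them lay on chromosomes 13, 3, 4 and 9, with summed normalized tags of 112.1, 240.4, 250.4 and 198.5. The others lay on chromosomes 14 and 17, with 134.6 and 135.2. The one on chromosome 4 holds the peak at the Gm12381 window. Desert peaks with a neighbour within 10 kb and those without had like tag counts, with medians of 21.5 and 22.0.

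**Figure D4:**
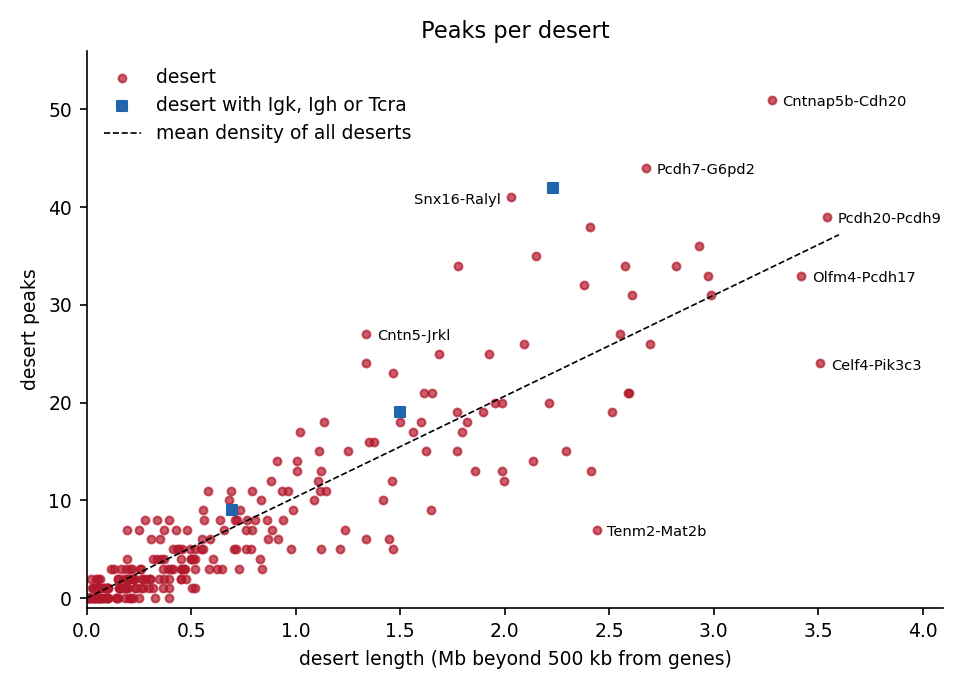
Number of desert peaks against desert length in Mb for 248 deserts, with squares for the 3 deserts that lie in the antigen receptor loci Igk, Igh and Tcra. The dashed line is the mean density of 10.3 peaks per Mb, and the points spread around it from 51 peaks between Cntnap5b and Cdh20 to 7 peaks between Tenm2 and Mat2b.

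The genome held 248 deserts, with a median length of 0.496 Mb beyond the limit and a longest of 3.54 Mb. Peaks were found in 216 of them. The 32 without a peak were short, with a median of 72.8 kb and 3.36 Mb in all. The longest of these, 0.395 Mb on chromosome 18 between the zinc finger gene Zfp608 and Gramd3, would have held a density of up to 9.34 per Mb at the upper bound of a count of 0. Peak number followed length, with a Spearman rho of 0.909 across the 248 deserts, given as a description. Over the 72 deserts of at least 1 Mb, which held 71.4% of the desert peaks on 68.3% of the area, density had a median of 10.8 per Mb and ranged from 2.87 to 20.2. Among them rho between length and density was -0.035. The 10 deserts with most peaks held 394 peaks (18.9%) on 13.2% of the area, and 37 deserts held 50% of all desert peaks.

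The desert with most peaks lay on chromosome 1 between Cntnap5b, a neurexin family gene, and Cdh20, a cadherin gene (chr1:100990600-104268339). It held 51 peaks over 3.28 Mb, or 15.6 per Mb (11.6 to 20.5), with 9.43 to 76.0 normalized tags and a median of 22.0. Next came 44 peaks on chromosome 5 between the protocadherin gene Pcdh7 and G6pd2, a glucose-6-phosphate dehydrogenase gene (chr5:58633237-61308842). These ranged up to 103.7 normalized tags and stood at 16.4 per Mb (11.9 to 22.1). Both deserts had several top peaks, 9 in the first and 7 in the second.

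A desert with 41 peaks lay on chromosome 3 between Snx16, a sorting nexin gene, and Ralyl (chr3:10940132-12971654). At 20.2 per Mb (14.5 to 27.4) it was the densest of the 72 long deserts. Cntn5 to Jrkl on chromosome 9, with 27 peaks, was all but level with it at 20.2 per Mb (13.3 to 29.4). In the Snx16 to Ralyl desert 21 peaks had a neighbour within 10 kb, and the tallest held 124.7 normalized tags over 4464 bp.

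A pair of deserts on chromosome 14 followed, with 39 peaks between Pcdh20 and Pcdh9 and 38 between Slitrk5, a synaptic adhesion gene, and Gpc5, a glypican gene. The first is the longest desert of all, and at 11.01 peaks per Mb it was near the mean, while the second had 15.8 per Mb (11.2 to 21.7). Further down came Lrrc4c to Iftap on chromosome 2 with 36 peaks, Cdh2 to Dsc3 on chromosome 18 with 35, and 3 deserts with 34 each. These 3 were Dsel to Cntnap5a on chromosome 1, D3Ertd751e to Pcdh10 on chromosome 3 and Cox7c to Edil3 on chromosome 13, so the tenth place was tied. Lrrc4c and Pcdh10 encode synaptic and cell adhesion proteins, and Cdh2 and Dsc3 encode a neural cadherin and a desmosomal one. Median tags in the 11 deserts with most peaks ran from 17.05 to 26.7, and peaks covered 1.08 to 1.96% of each.

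Olfm4, a marker of crypt stem cells, bounds the twelfth desert. No protein-coding gene lay in the 4.42 Mb between it and Pcdh17 on chromosome 14, and the desert inside (chr14:80523142-83943562) held 33 peaks. At 9.65 per Mb (6.64 to 13.5) its density was near the mean of all deserts. Median normalized tags were 27.2, and the tallest peak (chr14:81087634-81090557) had 104.8 normalized tags with 7.5 control tags. This desert was chosen after its values were seen.

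**Figure D5:**
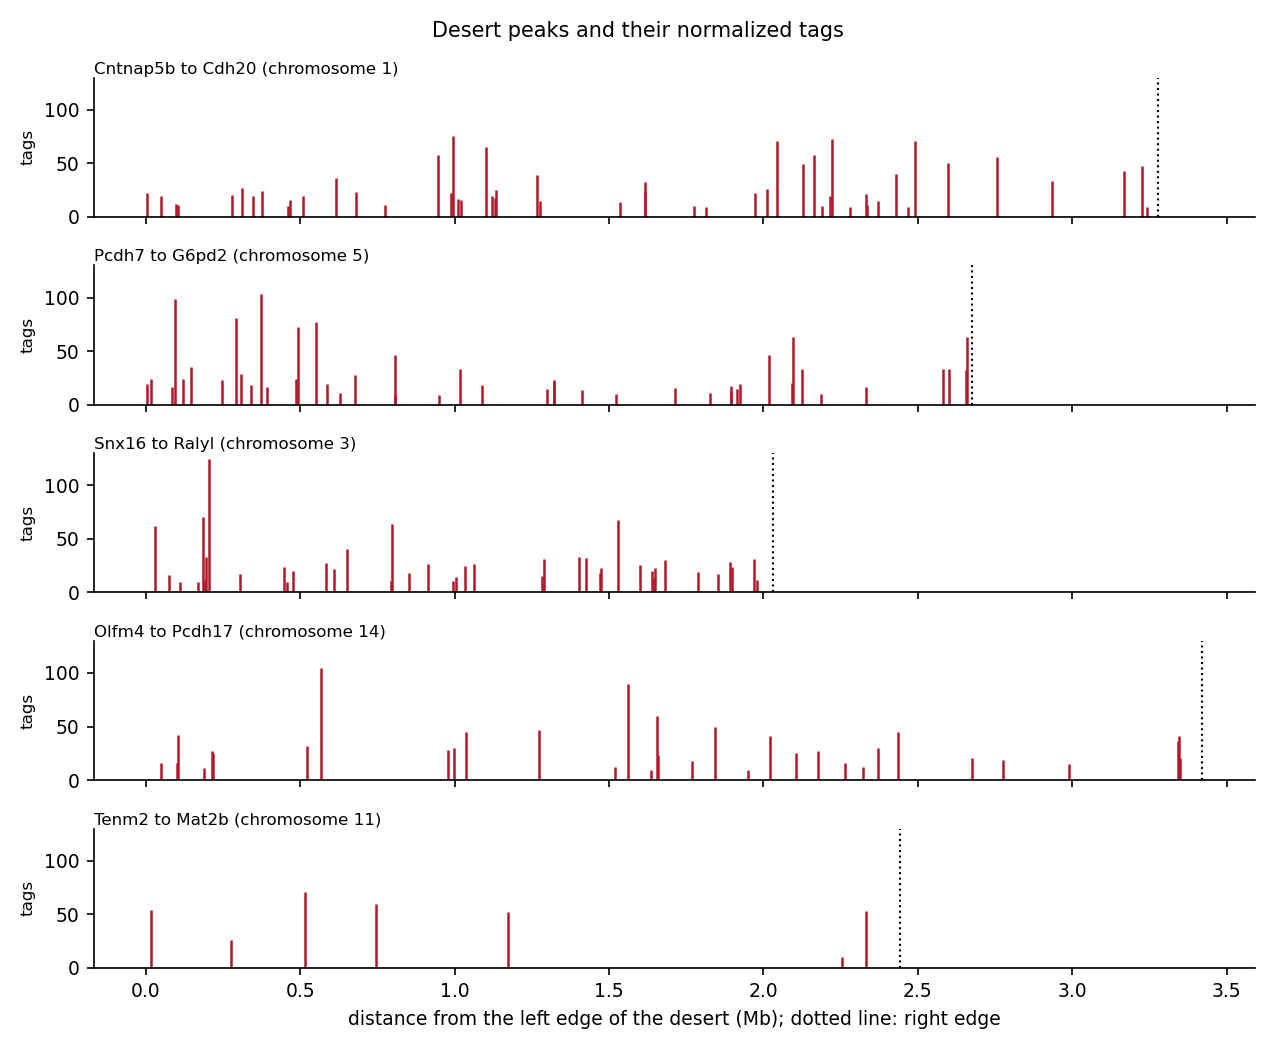
Positions of desert peaks (Mb from the left edge of the desert) and their normalized tags in 5 deserts, with a dotted line at the right edge. Peaks are spread over the whole length, from 51 in the desert beside Cntnap5b to 7 in the one beside Tenm2.

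The sparsest long desert lay on chromosome 11 between Tenm2, another teneurin, and Mat2b, a subunit of methionine adenosyltransferase (chr11:37737054-40179313). It held 7 peaks in 2.44 Mb, or 2.87 per Mb (1.15 to 5.91), below the interval of the Snx16 to Ralyl desert. In order of position the peaks held 54.0, 26.2, 70.7, 59.7, 52.4, 9.95 and 53.4 normalized tags. Of these, 5 were top peaks, so the few peaks there were mostly tall. The next sparsest, between Manea and the ephrin receptor gene Epha7 on chromosome 4, held 5 peaks at 3.41 per Mb (1.11 to 7.96), of 15.7, 11.5, 11, 32.5 and 9.43 tags. None of these was a top peak. The desert between Bcl11a, a transcription factor gene, and Fancl on chromosome 11 had 5 peaks at 4.12 per Mb. The sparse deserts, named after their values were seen, thus differed in tags per peak.

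Genes beside the deserts were looked up in 2 lists drawn up from knowledge of genes in gene-poor regions, so their counts describe the deserts and support nothing. Of 49 neuronal adhesion and synapse genes in the table, 35 (71.4%, 56.7 to 83.4%) were the nearest protein-coding gene on a side of a desert. Over all 20560 protein-coding genes 2.22% were. Those deserts, 43 in number, held 647 peaks, or 31.1% of desert peaks, at 10.7 per Mb (9.91 to 11.6). In 7 deserts the list stood on both sides, as between Cdh6 and Cdh9 (27 peaks) or Slitrk1 and Slitrk6 (10 peaks). These 7 held 150 peaks at 11.6 per Mb (9.81 to 13.6), with a median of 18.3 tags (15.7 to 20.4).

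Of 45 developmental transcription factor genes, 17 (37.8%, 23.8 to 53.5%) bounded a desert, and 12 of those 17 deserts had a peak. They were short, with a median of 0.211 Mb, and held 68 peaks at 9.30 per Mb (7.22 to 11.8). Nr2f1 to Arrdc3 on chromosome 13 had most of them, 25 peaks. Deserts beside neither list held 1365 peaks at 10.2 per Mb (9.67 to 10.8). They include deserts beside adhesion genes that the list lacks, such as Cdh2 and Lrrc4c, so they are not deserts free of such genes. The intervals of these 3 kinds of desert overlap, and so do those of their top peak shares, which were 15.6%, 16.2% and 17.0%.

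By the rule no desert peak lay in a protein-coding gene, and most lay in no annotated gene at all. The midpoint was inside a gene of another type in 224 peaks (10.8%, 9.47 to 12.2%), of which 100 were in long non-coding RNA genes and 56 in pseudogenes. The share of desert area inside such genes is not given here, so 10.8% cannot be read as many or few. Predicted genes without a proper name held 155. Peaks in genes of other types had a median of 21.0 tags and those in no gene 22.0. Of the predicted genes, the pseudogene Gm18728 on chromosome 1 held most, 11 peaks, 3 of them top peaks, inside the desert beside Cntnap5b. The long non-coding RNA gene Gm32647 on chromosome 7 held 9 and no top peak.

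Antigen receptor loci held 70 of the 224. Their V, D and J segments are joined in lymphocytes alone, and they count as deserts because segments are not protein-coding genes in the table. Igk on chromosome 6, an immunoglobulin light chain locus, held 42 desert peaks, 5 of them top peaks, with 9.43 to 82.8 tags. Igh on chromosome 12, the immunoglobulin heavy chain locus, held 19 with up to 98.5 tags. Tcra on chromosome 14, the T cell receptor alpha locus, held 9. In order of position these had 13.6, 25.7, 10.5, 10.5, 29.9, 210.0, 13.6, 195.4 and 19.9 normalized tags. The pair of tall ones (chr14:53563817-53570130 and chr14:53685656-53689516) were 6313 and 3860 bp wide, and the other 7 were near or below the median of the deserts apart from those of 25.7 and 29.9. Together the 70 had a median of 21.0 tags and 14.3% were top peaks, and without them the desert median was 21.5. Other named genes with a desert peak included the pseudogenes Pomc-ps1, Gpi-ps, Dnmt3a-ps1 and Rps19-ps1, with 1 each and 10.5 to 16.8 tags. The Rps19-ps1 peak lies within Tcra and is 1 of the 9 there.

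Desert peaks were spread unevenly over chromosomes, as was desert area. Chromosome 1 had most, 248, followed by chromosome 3 with 199 and chromosome 14 with 178. The share of a chromosome's peaks in deserts was 11.3% (9.74 to 12.9%) on chromosome 14, 10.3% on chromosome 3 and 10.2% on chromosome 1, and it was lowest on chromosome 19 at 1.55% (0.848 to 2.58%), with 14 peaks. Density in deserts was below that elsewhere on 18 of 19 chromosomes. The ratio was lowest on chromosome 17, where deserts had 7.12 peaks per Mb and the rest 22.5, a ratio of 0.317. On chromosome 13 it was 1.11, with 14.8 per Mb in deserts and 13.4 elsewhere. The share of top peaks was higher in deserts on 17 chromosomes. The exceptions were chromosome 7, with 2 top peaks among 47 desert peaks (4.26%, against 9.94% elsewhere), and chromosome 15, where the shares were 7.84% and 7.85%.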

How the data were processed

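The submitters' processing notes name the tools Bowtie2 2.2.8 and HOMER 4.10.1 and the builds GRCm38 and mm10, with no role for each. The columns are those of HOMER findPeaks, per the file headers, and its options were not given in the sources used. In the deposited list, normalized tag counts and control tags are a coverage signal, the deposited fold is a ratio over control after library scaling (lowest value 4), and the deposited score and p-value are the caller's. The list was made from 1 ChIP library with no pooling of replicates stated. Positions and widths are in bp as the authors give them.

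Normalized counts below 30 were whole steps of 0.524, the worth of 0.5 tag, in 100% of cases within a tolerance of 0.1 of a step, so tags were recovered from them. The lowest peak held 9 tags, and the control was 0.684 times as deep as the ChIP. Total depth is unknown.

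Genes came from a RefSeq table of GRCm38.p6, the same build. Of it, 328 genes with positions under 3 Mb, which are scaffold coordinates, were left out, and 46714 genes on chromosomes 1 to 19 remained, 20560 of them protein-coding. A further 2215 peaks on X, Y and scaffolds were not used. No genome sequence was used. Shares have Clopper-Pearson intervals, densities Poisson intervals, ratios conditional binomial intervals, and medians order-statistic intervals. Distances, the density ratio and the median of tags were checked on simulated peaks placed uniformly. Medians of width and fold and all intervals were not checked in this way. Python 3.11 was used.

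Named were the 10 deserts with most peaks (11 with ties), the 10 tallest peaks, the 5 highest folds above the control floor, the longest runs, the longest desert without a peak, peaks beside the limit, and the 5 other genes with most peaks (more with ties). The members and lists were chosen with earlier results of these data known. Alternatives were other limits, gene sets, filters, merging and areas. Counting the antigen receptor loci as genes and splitting the density ratio by tag count were chosen after seeing the data. The farthest, widest and highest-scoring peaks, the desert beside Olfm4, the Cntn5 to Jrkl desert and the sparse deserts were also chosen after their values were seen. So were the classes of tag count, and Gm18728 and Gm32647. Among the items this rule names, 1 desert and 1 pseudogene are not reported here.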

Additional observations from a re-analysis of the deposited data

How the results depend on the processing

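Some alternatives could hardly move a value. Leaving out stretches at chromosome ends, dropping peaks of more than 10 control tags and counting receptor loci as genes kept 2077, 2068 and 2010 of the 2080 desert peaks. All their values stayed within the interval of the value reported, which says little about stability. Across 76 alternative values of the 8 main results, these included, 50 stayed within that interval, 25 moved outside it and 1 changed side. That one is the density ratio of top peaks alone, 1.073 with an interval that includes 1, while the other 90% of peaks gave 0.587. The cause was not tested. The ratio was also 0.697 with a limit of 1000 kb, 0.821 for scores above the median, 0.702 with peaks within 5 kb merged and 0.505 with areas counted from base 1, which adds the bases before the first peak of each chromosome. The share of peaks in deserts was 10.8% with a limit of 250 kb, 1.92% with 1000 kb, 3.93% with every named gene counted, 6.99% for scores above the median and 6.03% after merging. The 10 fullest deserts then held 10.9% (250 kb), 34.6% (1000 kb) and 22.1% (every named gene). For scores above the median, desert peaks had a median width of 907 bp, 26.45 tags, a fold of 11.68 and 13.0% top peaks, and 19.1% had a neighbour within 10 kb. After merging these were 888.5 bp, 24.1 tags, 12.9% and 9.88%. With a fold of at least 8, the median fold was 13.68 and 25.3% had such a neighbour. Within 50 kb the neighbour share was 70.1%. Where other peaks give the same measure, desert medians of width and tags and the share of top peaks stayed above theirs, and neighbour shares below, in the settings named. The median fold was above theirs too, except with a limit of 1000 kb, where both were 12.32. No paired analysis was possible because each group has 1 library, and no replicate could be left out. The list holds no peak under 9 tags, so weaker marking in deserts or elsewhere cannot be read from it. What set that floor was not tested.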
